A study of Mus musculus with 16 samples.

Results

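The 8 arrays described here carried cDNA amplified by PCR from 10 pg of total RNA, an amount of the order of that in a single cell. They were chosen by their sample titles out of 16 arrays, and 45037 of the 45101 probe sets entered, with 64 Affymetrix control probe sets left out. Silica columns were used to extract the RNA from E14tg2a, a mouse embryonic stem cell line that grows without feeder cells and lacks functional Hprt. The 8 amplified arrays and the 8 nonamplified arrays, which received 5 µg of undiluted RNA, are both titled technical replicates of this material. Each spread below is therefore one of dilution, amplification, labelling and hybridisation, which cannot be told apart here, and each p-value measures only technical spread. No treatment, genotype or time differed among the arrays. The nonamplified arrays appear only as a background measured the same way, without a test against them.

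Amplification from so little RNA starts with few copies of each mRNA in the tube. Copying of the mRNA into cDNA is incomplete, and the cDNA molecules that are made are then multiplied by PCR. A transcript whose cDNA is not made in a given reaction cannot be multiplied there, while abundant transcripts are sampled many times. On the array each transcript is read by a probe set, a group of short probes usually placed near the 3′ end, and many genes have several probe sets. Identifiers ending in _x_at or _s_at mark probe sets with probes that also match other sequences.

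The cell type was checked against its markers. All 8 embryonic stem cell markers were on in every array, where on means at or above the 80th percentile of that array. Their mean intensities ran from 275.9 for Nanog to 10475 for Dppa5a. None of 7 fibroblast markers was on in any array, the highest value being 157.5 for Postn. None of 3 blood markers measured was on in any array either. Of 4 trophoblast markers, Cdx2 and Elf5 were off in all arrays, Krt8 was on in 2 and Tfap2c in 6. Gata6 was the exception among 4 primitive endoderm markers, on in all arrays between 184.3 and 261.6, while Gata4, Sox17 and Dab2 were on in none. In undiluted RNA the Gata6 probe set averaged 73.2 ± 15.4 (SD, n = 8).

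The 8 arrays were alike as wholes. Their median intensities lay between 33.9 and 36.7, and between 6.77% and 8.36% of probe sets stood at the lowest deposited value of 1. Pearson r between arrays, over all probe sets on the log2 scale, lay between 0.789 and 0.829 for the 28 pairs of arrays, with a median of 0.807. No array stood apart on any of 7 such measures. The number of arrays, not a read depth, sets the precision.

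Spread between reactions was taken as the SD of log2(intensity + 16) over the 8 arrays, a scale that understates differences between dim values. On it an SD of 1 is a factor of 2. The median SD was 0.42, against 0.18 over the nonamplified arrays. Of all probe sets, 8255 (18.3%) had an SD of at least 1, against 6 (0.0133%) on the nonamplified arrays. On this scale spread did not fall evenly with level, and its course by level was not followed with another pseudocount. The median SD was 0.40 for probe sets with a geometric mean under 50, rose to 0.73 between 200 and 1000, and was 0.48 between 1000 and 4000 and 0.15 above 4000. The highest of the 8 values exceeded the lowest by a median of 4.48-fold between 200 and 1000, and by 1.35-fold above 4000. The nonamplified arrays had no such maximum, with median SDs that went down steadily from 0.27 to 0.041 over the same ranges of their own level.

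**Figure D1:**
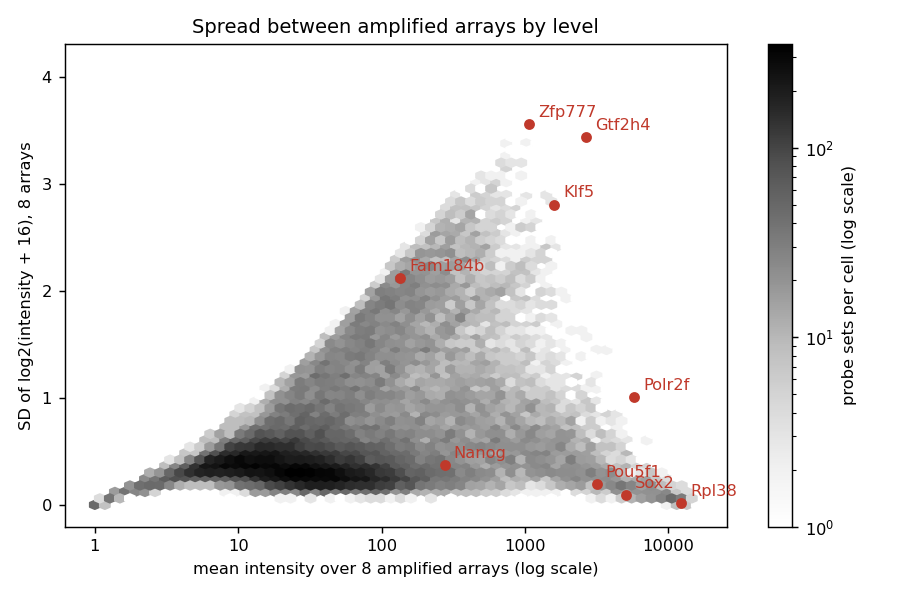
Each grey cell counts probe sets by mean intensity over the 8 amplified arrays (log scale) and by the SD of log2(intensity + 16), and 9 named probe sets are marked in red. Rpl38 and Sox2 lie at the bottom right with SDs of 0.018 and 0.091, while Zfp777 and Gtf2h4 lie at the top with SDs of 3.56 and 3.44.

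The most even probe sets among the brightest belonged to Rpl38 and Rps29, both ribosomal proteins, and to Cox5b, a subunit of cytochrome c oxidase. Rpl38 read 12018 at the lowest, 12377 at the median and 12447 at the highest (SD of log2 values 0.018, n = 8). Rps29 lay between 12446 and 13009, and Cox5b between 10678 and 11337. No array stood out low for any of them. Between 1000 and 4000 the most even were Btf3, a factor that binds nascent polypeptides, Cct3, a chaperonin subunit, and Slc25a5, the mitochondrial carrier of ADP and ATP. Btf3 ranged from 2972 to 3338 and Slc25a5 from 2356 to 2823. Between 200 and 1000 the gene of thyrotropin-releasing hormone, Trh, stayed between 874.3 and 1033, with an SD of 0.078. Sncb and Csf1, which encode beta-synuclein and a macrophage growth factor, stayed between 214.1 and 251.2 and between 187.8 and 225.6. Between 50 and 200 the most even were Sox10, a neural crest transcription factor, Wipi1 and Pnpla5, with SDs of 0.053, 0.064 and 0.069. Sox10 had values from 129.0 to 147.2, and none of the 3 was on in any array. In undiluted RNA the probe sets of Trh, Sncb and Csf1 averaged 1182, 91.8 and 167, and those of Sox10, Wipi1 and Pnpla5 averaged 96.5, 14.7 and 97.7.

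The most uneven bright probe sets included 2 subunits of RNA polymerase II. Polr2f, a subunit shared by the nuclear RNA polymerases, ranged from 1453 on array 5 through a median of 5940.4 to 9827 on array 1, with an SD of 1.005. Polr2i was lowest on the same array at 1132, with a median of 5228 and a highest value of 6312. Mrps12, of the small subunit of the mitochondrial ribosome, was lowest on array 4 at 1295 and highest on array 5 at 7439. All 3 stayed on in all 8 arrays, and their lowest values did not fall on the same array throughout. Between 1000 and 4000 the largest SDs were those of Svbp (2.45), 1110008P14Rik (2.43) and Chrac1 (2.17). Chrac1, a histone-fold subunit of a chromatin remodelling complex, read 19.9 on array 5 and between 1666 and 3448 on the other 7. Svbp, a partner of the vasohibins, read 5.15 on array 2 and between 1220.2 and 3903 on the others. In both genes 1 array lay far below the other 7. In 1110008P14Rik 2 arrays were low, at 46.8 on array 4 and 187.5 on array 8, against at least 1503 on the others.

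Among probe sets of middle level the spread spanned the range of the array. H2bc22, a histone H2B gene, read 1 on arrays 2 and 8, 40.5 on array 3, and between 2834 and 7519.9 on the other 5. Bloc1s4, a subunit of a complex needed for lysosome-related organelles, read 1 on array 5, 1.55 on array 7 and 109.2 on array 8, and between 1187 and 3462 elsewhere. A probe set of Eif3c, a core subunit of translation initiation factor 3, read between 1277 and 3472 on arrays 1, 2, 4 and 6 and between 4.28 and 16.6 on the others. In undiluted RNA the same Eif3c probe set had a mean of 1625 ± 71.3 (SD, n = 8). Its values at 10 pg lay in clusters of 4 arrays each, with nothing between them. The other 3 probe sets of Eif3c were on in all 8 arrays, with SDs of 0.40, 0.24 and 0.26, so the pattern was that of a probe set and not of the gene.

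That pattern was counted across the array. A probe set was called off on an array at or under the 50th percentile of that array, between 33.9 and 36.7, and on at or above the 80th, between 160.5 and 182.1. It was called all-or-none when each of the 8 arrays was either on or off, with at least 1 of each. All-or-none probe sets numbered 1681 (3.73%), always on 4427 (9.83%) and always off 11824 (26.3%). The other 27105 had at least 1 array between the thresholds, and 4996 of these also had at least 1 array on and 1 off. On the nonamplified arrays the same rule found 0 all-or-none probe sets, 8219 always on and 18661 always off. No test stands behind these counts, and they depend on the thresholds, as the values under other thresholds in the closing section show.

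Most all-or-none probe sets had a wide gap. The gap between the lowest on value and the highest off value had a median of 3.42 on the log2 scale, or 10.7-fold, and reached 3 or more in 1153 of 1681 probe sets (68.6%). In 997 of them at least 1 off array stood at the lowest value of 1. Probe sets on in a given number of arrays were most frequent at the ends, with 335 on in 1 array and 317 on in 7, and least frequent in the middle, with 165 on in 5. The median on value was higher the more arrays were on, from 289 for probe sets on in 1 array to 685 for those on in 7. The level in undiluted RNA ran the same way: its median was 17.5 for probe sets on in no array, 47.3 for 1, 133 for 4, 339 for 7 and 705 for 8. The quartiles of neighbouring numbers of arrays overlapped.

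**Figure D2:**
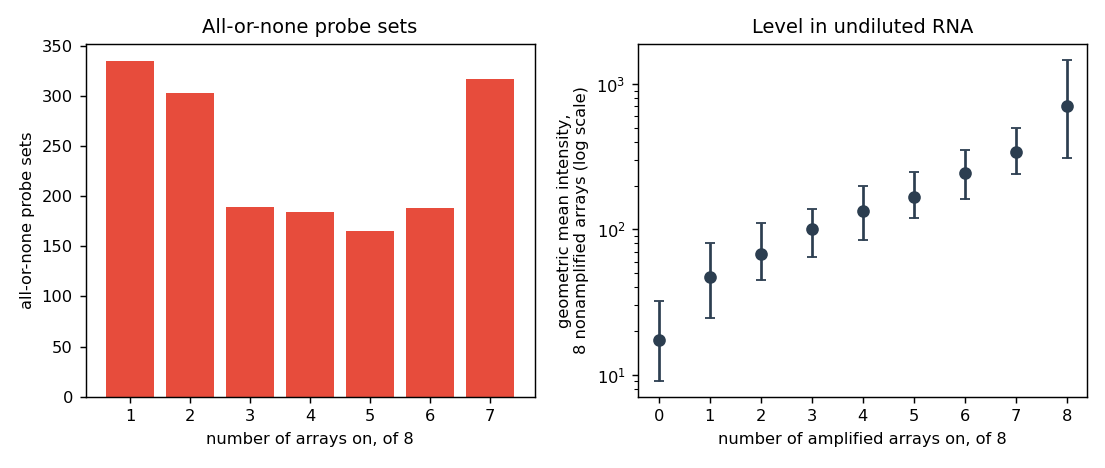
Left, bars count the 1681 all-or-none probe sets by the number of the 8 amplified arrays in which they were on. Right, points give the median geometric mean intensity over the 8 nonamplified arrays (log scale) by that number, with always off and always on probe sets at 0 and 8 and lines from the lower to the upper quartile, and the medians run from 17.5 to 705.

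The widest gaps for each number of arrays gave the clearest examples, and the values given for each gene are those of the probe set with that gap. Fam184b read 1070.1 on array 4 and 1 on all others, and Krr1, a factor of small ribosomal subunit assembly, read 1011 on array 7 and 1 on all others. Zfp811, a zinc finger protein gene, was on in arrays 1 and 5, at 1370.3 and 1289, and stood at 1 elsewhere. Nans, which makes sialic acid, was on in arrays 2 and 6, at 1139 and 1409.6, and stood at 1 elsewhere. Another probe set of Krr1 was on in all 8 arrays, with a mean of 1200.5. The all-or-none probe sets were dim in undiluted RNA, where that of Fam184b averaged 36.6 ± 14.3, Krr1 69.4 ± 7.98, Zfp811 46.7 ± 9.57 and Nans 133.0 ± 10.5 (SD, n = 8).

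The middle numbers gave the same kind of gap. Ankrd37 was on in arrays 2, 4 and 5, between 1613 and 1790.1, and at or under 6.36 elsewhere. Chmp2b, a subunit of the membrane-cutting ESCRT-III complex, was on in arrays 1, 5, 6 and 7, between 1156 and 2161, and at or under 3.41 elsewhere, while another all-or-none probe set of Chmp2b was on in arrays 1, 4 and 7. Zfp777 was on in arrays 1, 2, 4 and 7, between 1371 and 3349, and at or under 11.6 elsewhere. Mtmr9, a myotubularin-related protein gene, was on in arrays 1, 2, 3, 6 and 7 and at or under 3.26 in the others. Rabep2, an effector of Rab GTPases, was on in arrays 4, 5 and 7, and Dcun1d4, of the cullin neddylation machinery, in arrays 2, 3, 5, 7 and 8, and both stood at 1 elsewhere. For each of 3, 4 and 5 on arrays, the 2 probe sets named here were on in different sets of arrays.

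At the other end were probe sets off in 1 or 2 reactions, and whether the whole gene was lost there was not tested. Akap8l, a nuclear A-kinase anchoring protein gene, read 10.5 and 24.4 on arrays 3 and 4 and between 2455 and 3981 on the other 6. Vegfb, a vascular growth factor gene, read 1 on arrays 3 and 8 and between 919.6 and 2422 elsewhere. Nupl1, a nucleoporin gene, read 1 on array 3 and between 1591 and 3211 on the other 7. Pstk, a kinase in the making of selenocysteinyl-tRNA, read 1 on array 2 and between 1062 and 2322 elsewhere. In undiluted RNA the Nupl1 probe set averaged 766.9 ± 58.3 and that of Pstk 226.0 ± 9.85 (SD, n = 8).

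On and off states of the all-or-none probe sets were spread over the reactions. Of the 254 possible sets of on arrays, 243 occurred. Between 703 (array 2) and 907 (array 7) of the 1681 all-or-none probe sets were on in an array. Between 36 and 49 were on in that array alone. Those off in that array alone ranged more widely, from 16 in array 7 to 65 in array 1 and 64 in array 2.

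Gene groups were described over 18194 genes, each represented by its brightest probe set on average. Of these, 15.7% were always on, 4.94% were all-or-none and the median SD was 0.47. Because spread depends on level, each member was also set against the median SD of all genes in the same of 50 bins of mean level, and 50% of all genes lie above this trend by construction. No set test was run, and the groups were chosen with earlier results of these data known.

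Ribosomal protein genes were the most even of the groups that are not cell type markers. Of 44 ribosomal protein genes, 38 were always on and the median SD was 0.10, with 7 (15.9%) above the trend. Rps7, Rps2 and Rps18 each had an SD under 0.05. A few members departed from this. Rpl14, of the large subunit, ranged from 1 on array 8 through a median of 1249 to 3194 on array 6, and Rpl12 read 7.46 on array 5 and between 173.6 and 873.7 on the others. Ribosomal protein genes have many processed pseudogenes of near-identical sequence, and what share of their signal comes from these was not tested.

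Of 76 respiratory chain subunit genes, 68 were always on and 35 (46.1%) were above the trend. Cox6a1, Cox8a and Uqcrb had SDs of 0.045, 0.052 and 0.084. The widest spread among members at 200 or more was that of Ndufs7, a subunit of complex I, which read 465.8 on array 2, 3172 at the median and 6789 on array 3. Cox7c was all-or-none, on in arrays 1 and 5 at 861.9 and 509.3 and at most 29.2 elsewhere. Of 39 proteasome subunit genes, 31 were always on, 0 were all-or-none and 13 (33.3%) were above the trend. Psma5, of the core particle, stayed between 2979 and 3632, while Psmd8, of the regulatory particle, read 43.2 on array 4 and up to 1519.6 on array 3.

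Glycolysis showed both kinds of gene in a single pathway. Of 16 genes, 11 were always on, among them Ldha (6766 to 7406), Pgk1 (7136.5 to 8285) and Pgam1 (3967 to 4711). The hexokinases, which carry out the first step, were uneven. Hk2 read 2.18 on array 2 and between 647.5 and 3333 on the others, and Hk1 ranged from 8.77 to 1604 with a median of 540.7. Glycolysis genes above the trend numbered 7 of 16 (43.8%).

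**Figure D3:**
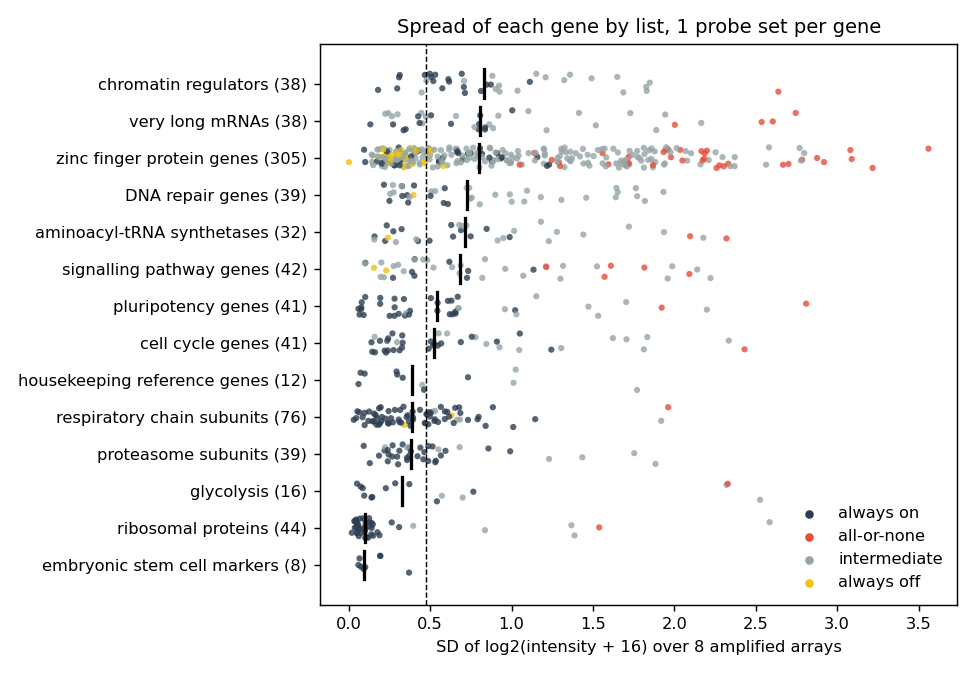
Each point is a gene, placed by the SD of log2(intensity + 16) over the 8 amplified arrays and coloured by its detection class, for groups of at least 8 genes. Thick bars are group medians, from 0.095 for 8 embryonic stem cell markers to 0.83 for 38 chromatin regulators, and the dashed line is the median over all genes, 0.47.

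Of 41 pluripotency genes, 29 were always on, 2 were all-or-none and 16 (39.0%) were above the trend. The core factors were steady at their own levels. Sox2 ranged from 4644 through a median of 4973 to 5707, with an SD of 0.091, and Pou5f1, which encodes Oct4, from 2766 through 2997 to 4204, with an SD of 0.19. Nanog was dimmer and ranged from 183.9 through 248.8 to 424.3, with an SD of 0.37, and its lowest value, on array 1, lay just above the on threshold of 174.1 there. Dppa5a, Utf1 and Tdgf1 had SDs of 0.059, 0.065 and 0.074. Klf5 and Nr5a2, transcription factors of the pluripotency network, were all-or-none. Klf5 read 13.5 and 28.8 on arrays 5 and 6 and between 242.5 and 3477 on the others, and Nr5a2 read 15.6 on array 2 and between 268.4 and 2075 on the others. Prdm14, a repressor that protects the naive state, read 5.399 and 1 on arrays 6 and 7, 131.9 on array 4 and between 175.8 and 644.5 elsewhere. Klf5 and Prdm14 were thus off in 2 reactions each and Nr5a2 in 1, while Pou5f1, Nanog and Sox2 were on in all 8.

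Of 42 signalling genes, 9 (21.4%) were always on, 5 were all-or-none and 26 (61.9%) were above the trend. Ctnnb1, which encodes beta-catenin, ranged from 5264 to 6479, and Id1, a target of BMP signals, from 3297 to 8689. The 5 all-or-none genes were Acvr2a, a receptor of activin, the signal transducers Smad3 and Smad5, and the feedback inhibitors Spry2 and Spry4. Smad3 was on in arrays 6, 7 and 8, between 234.7 and 478.4, and at most 29.7 in the others. The brightest probe set of Spry2 was lost in array 1 alone, at 19.8, and that of Spry4 in array 8 alone, at 31.3. Spry4 had another all-or-none probe set that was on in arrays 2 and 5 only. Acvr1b, another receptor of this family, read 8.65 on array 5 and up to 1517 on array 2.

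Of 41 cell cycle genes, 26 were always on, 1 was all-or-none and 21 (51.2%) were above the trend. All 6 genes of the replicative helicase, Mcm2 to Mcm7, were always on, with SDs from 0.24 to 0.33. Pcna, the sliding clamp of DNA replication, ranged from 4128 to 5559. The regulators Chek1, a checkpoint kinase, and Plk4, which starts centriole copying, had the largest SDs, 2.33 and 2.43. Plk4 read 3.99 and 2.13 on arrays 1 and 3 and between 214.2 and 1385 elsewhere. Of 39 DNA repair genes, 11 were always on, 0 were all-or-none and 27 were intermediate, and 23 (59.0%) were above the trend. Xpa, which recognises DNA damage, ranged from 221.6 to 379.8. Brca1 read 7.24 on array 2 and up to 791.5 on array 5.

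Chromatin regulators had a median SD of 0.83, with 24 of 38 (63.2%) above the trend and 19 always on. Hdac1, a histone deacetylase, ranged from 3309.5 to 4939, with an SD of 0.18. Chd1, a remodeller linked to open chromatin in embryonic stem cells, read 1 on arrays 1 and 7 and between 263.5 and 2013 on the others. Mta1, of a deacetylase complex, read 44.8 on array 1 and up to 2426 on array 3. Genes of very long mRNAs had 4 of 38 all-or-none (Akap9, Macf1, Nbeal1 and Plec) and 21 (55.3%) above the trend. Kmt2d, among the longest, stayed between 567.0 and 765.8, but its probe set averaged 93.9 ± 10.3 in undiluted RNA (SD, n = 8).

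Of 32 aminoacyl-tRNA synthetase genes, which load amino acids onto tRNAs, 13 were always on, 2 were all-or-none and 18 (56.2%) were above the trend. Kars ranged from 776.2 to 1038. The all-or-none members were Mars2 and Rars2, and Rars2 read 16.1 and 3.65 on arrays 1 and 8 and between 294 and 1484 elsewhere.

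Zinc finger protein genes were the largest group. Of 305, 34 (11.1%) were all-or-none, against 4.94% of all genes, 32 were always on and 202 (66.2%) were above the trend. Their median mean intensity was 87.1, close to the 87.9 of all genes. Of the 34, 14 were on in 1 or 2 arrays, 11 in 3 to 5 and 9 in 6 or 7. Zfp324 was on in 1 array at 765, Zfp142 in 4 arrays with a highest value of 1529, and Zfp445 in 7 arrays with a lowest value of 1. Zfp444, by contrast, stayed between 206.5 and 250.9, and Zfp580 ranged from 29.0 to 3338.

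Of 12 housekeeping reference genes measured, 8 were always on. Eef1a1 ranged from 9418 to 10479 and Tfrc from 2152 to 4082, but B2m ranged from 1 to 521.3 and Tbp from 55.7 to 681. Actb was read by 2 probe sets, both on in all arrays. One ranged from 1077 to 2070.0 with an SD of 0.29, the other from 196.4 on array 8 to 1377 on array 3 with an SD of 1.02. In undiluted RNA the second was the brighter, at 7514 ± 161 against 3199 ± 314 (SD, n = 8).

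Whether several probe sets of a gene went up and down together was asked first of the all-or-none probe sets. There were 154 pairs of all-or-none probe sets of the same gene, from 117 genes, and 81 (52.6%) were on in exactly the same arrays. Over all 1411886 pairs of different genes this share was 1.25%. The agreement lay mostly with pairs holding an identifier that ends in _x_at or _s_at. Whether the probe sets of such a pair share probes was not examined. Where at least 1 of the pair was of type _x_at or _s_at, 72 of 87 pairs (82.8%) were on in the same arrays. Where neither was, 9 of 67 (13.4%) were, against 1.24% for different genes of these types. Another 9 of the 67 were in the same state in at most 1 array (13.4%), against 4.74% for different genes. Their mean number of arrays in the same state was 4.12 of 8, and 4.03 for different genes. Probe sequences were not used here, so how far apart on the mRNA the probe sets of a gene lie was not tested.

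The plainer types are all but _x_at and _s_at, so they include _a_at, and each pair named in this paragraph has at least 1 identifier ending in _a_at. Gtf2h4, a subunit of the transcription and repair factor TFIIH, had the widest gaps among pairs of the plainer types. Both probe sets were on in arrays 1, 2, 3, 4, 7 and 8 and off in arrays 5 and 6. The first read 9.27 and 5.09 where it was off and between 645.5 and 2936 where it was on. The second read 1.40 and 7.98, and between 1022 and 5393. Another probe set of the gene, of type _x_at, was on in the same 6 arrays. Dck, which phosphorylates deoxycytidine, read 1 and 1.65 with its pair on array 2 and at least 313.4 elsewhere. Btaf1, an ATPase that removes TBP from DNA, was lost by both on array 1 alone, but another all-or-none probe set of Btaf1 was on in arrays 1, 2, 3, 5 and 7 and in the same state as these in 4 of 8 arrays. Fastkd2, a mitochondrial RNA-binding protein gene, was lost on array 2 alone, and Atp6v1c1, of the vacuolar proton pump, on array 4 alone. Insig2, a brake on sterol synthesis, was the case of few on arrays: both probe sets were on in arrays 5, 6 and 7, and at most 10.4 in the other 5.

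Other pairs of the same gene were on in different reactions. Fbxo31, an F-box protein gene, had a probe set on in arrays 1 to 7, between 576.9 and 2215, and at 30.7 on array 8. Its other probe set stood at 1 on arrays 1 to 7 and read 222.8 on array 8. Srgap2, a GTPase-activating protein gene, had a probe set on in array 2 alone, at 503.8, and another on in all arrays but that, where it read 11.3. A further Srgap2 probe set, not all-or-none, stayed between 156.9 and 243.9, with an SD of 0.22. Vcpip1, a deubiquitinase gene, had a probe set on in arrays 2, 3, 6, 7 and 8 and another on in arrays 1 and 5. D16Ertd472e had a probe set on in array 2 and another on in arrays 1, 4, 5 and 7. No array was shared in these 4 pairs, which were named for that reason, and 16 of the 154 pairs shared none. Smad5, singled out after its values were seen, had a probe set on in arrays 1, 6 and 7 and another on in arrays 2, 4 and 6.

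Each of 1544 all-or-none probe sets, from 1410 genes, was also set beside every other probe set of its gene, which gave 2867 pairings. The other probe set was always on in 204 (7.12%), all-or-none in 308 (10.7%), always off in 604 (21.1%) and intermediate in 1751 (61.1%). Pairs of all-or-none probe sets are counted here from both sides, so a probe set can enter repeatedly and these are not counts of distinct probe sets. Over all probe sets these shares were 9.83%, 3.73%, 26.3% and 60.2%.

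**Figure D4:**
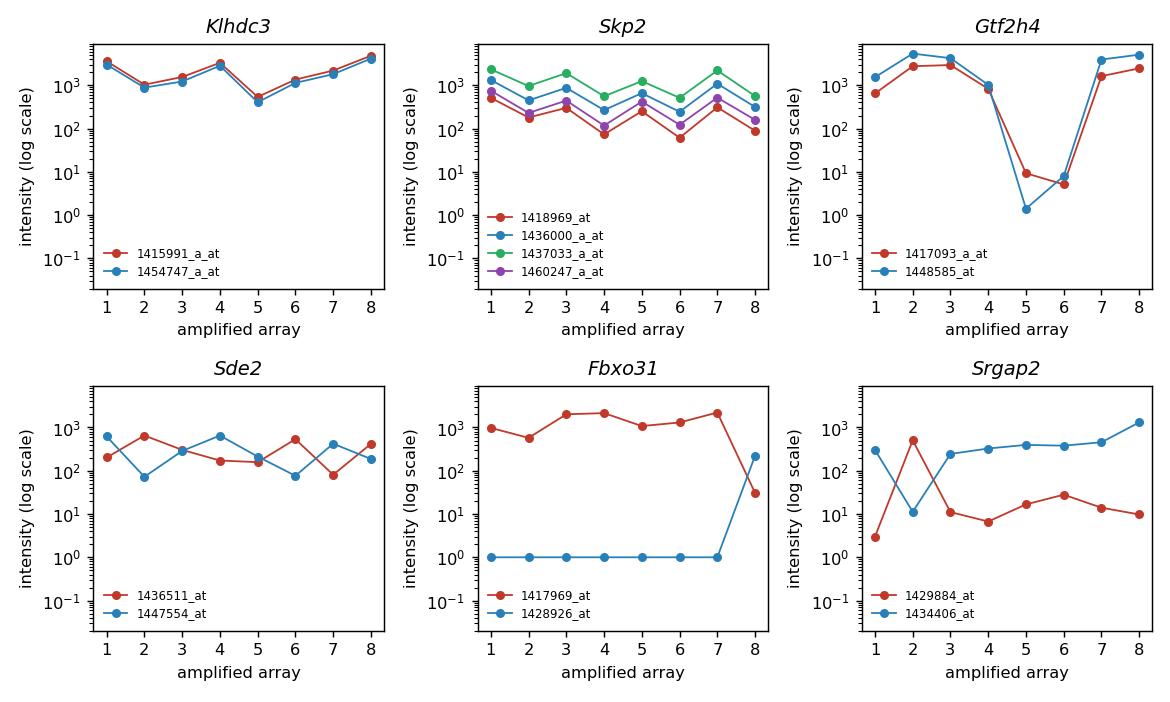
Intensities (log scale) on the 8 amplified arrays for selected probe sets of 6 genes, not always all that a gene has. Each line joins the values of a probe set over arrays that have no order. Those drawn for Klhdc3, Skp2 and Gtf2h4 go up and down together. The probe sets drawn for Sde2 go opposite ways, and those for Fbxo31 and for Srgap2 are high in different arrays.

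Agreement of values was measured as Pearson r over the 8 arrays. Among probe sets with an SD of at least 0.5, whatever their level, there were 7200 pairs of the same gene, from 3527 genes, with a median r of 0.25. Of these 1559 (21.7%) reached 0.8, against 1.02% of pairs of different genes, and 2432 (33.8%) were below 0. Agreement went with level. Where the dimmer probe set had a geometric mean under 50, as in 4972 of the 7200 pairs, the median r was 0.16, between 50 and 200 it was 0.39, between 200 and 1000 it was 0.90 and between 1000 and 4000 it was 0.98. On the nonamplified arrays the same SD filter left 13 pairs of the same gene, with a median r of 0.20. With no SD filter, 3859 nonamplified pairs of always on probe sets of the same gene had a median r of 0.24. Of these 8.24% reached 0.8, against 2.40% of different genes. Always on pairs of the amplified arrays had a median r of 0.97 where both SDs were at least 0.5 (289 pairs). Where both SDs were under 0.5 it was 0.83 (753 pairs).

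Pairs in which both probe sets lay above the off threshold on all 8 arrays, with an SD of at least 0.5, are called graded here. They numbered 951, from 572 genes, and had a median r of 0.88, with 57.9% at 0.8 or more, against 1.14% of pairs of different genes. Each was tested with an exact 2-sided permutation test over all 40320 pairings of the arrays, adjusted by Benjamini-Hochberg over the 951. Of them, 592 (62.3%) were positively and 5 negatively correlated at an adjusted p under 0.05. The largest p that passed, before adjustment, was 0.0312 in this exact test. With Spearman rho 505 passed. Without the 2 arrays farthest from the median of the first probe set, 547 of the 597 still had an r of at least 0.5 and 12 were below 0. These 12 were the 5 negative pairs and 7 positive ones that changed sign. The lowest array was the same for both probe sets in 506 pairs (53.2%) and the highest in 535 (56.3%). Probe set type again went with agreement. Where neither was of type _x_at or _s_at, 132 of 325 pairs (40.6%) were positively correlated with a median r of 0.49, and where at least 1 was, 460 of 626 (73.5%) were, with a median r of 0.93.

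**Figure D5:**
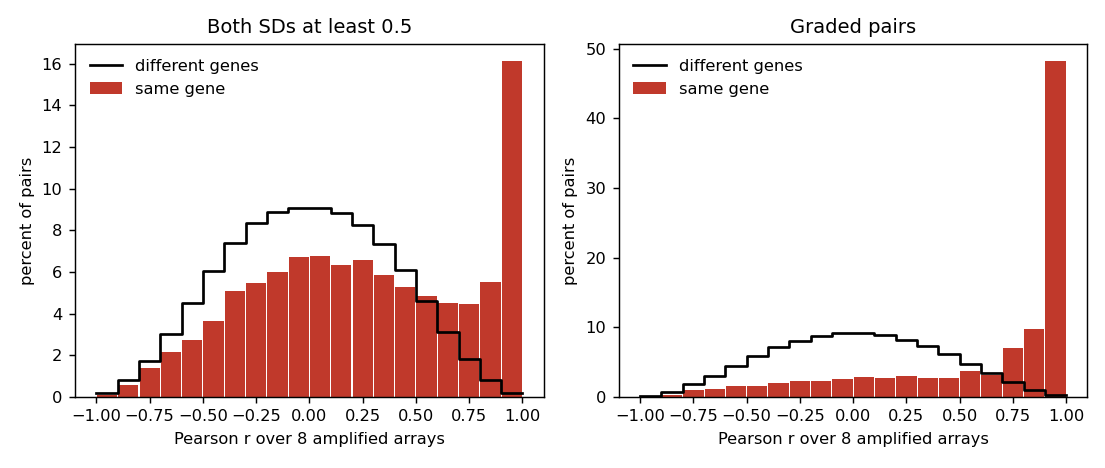
Percent of pairs of probe sets by Pearson r over the 8 amplified arrays, as red bars for pairs of the same gene and a black line for pairs of different genes. Left, both SDs are at least 0.5 (7200 pairs of the same gene, 21.7% at 0.8 or more); right, graded pairs (951 pairs, 57.9% at 0.8 or more).

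Klhdc3, a kelch-repeat protein gene, gave the closest pair of the plainer types, with both identifiers ending in _a_at. Its first probe set ranged from 537.4 on array 5 through a median of 1870.3 to 4816 on array 8, and the second from 405.0 through 1512 to 4138 on the same arrays. Their r was 0.999 (rho 1, exact p = 2.48e-05, the smallest that 8 arrays allow, adjusted p = 0.000284), and 0.998 without arrays 5 and 8. Another, dimmer probe set of Klhdc3 correlated with the first at r = 0.787 (rho 0.929, exact p = 0.0162, adjusted p = 0.0283). In this gene all 3 graded probe sets were lowest on array 5 and highest on array 8. The remaining probe set of Klhdc3, on in no array, was lowest on array 8, at 5.21, and highest on array 4, at 119.8.

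Siva1, which promotes apoptosis, ranged from 1929 to 6789 and from 2217 to 6573 by its 2 named probe sets, both lowest on array 6 and highest on array 3, with an r of 0.999. Skp2, the substrate-binding part of a ubiquitin ligase that acts on cell cycle inhibitors, had 4 graded probe sets with all 6 correlations between 0.973 and 0.992. Its brightest probe set read between 512.9 and 2336 and its dimmest graded one between 61.2 and 512.8, and arrays 1, 3 and 7 were the 3 highest for each of them. Cdk4, the kinase of the passage out of G1, had 3, with correlations between 0.991 and 0.996, each lowest on array 6 and highest on array 8. Brd8, of a histone acetyltransferase complex, and Eef1akmt1, which methylates an elongation factor, had an r of 0.991 and of 0.990. The exact p and its adjusted value were the same for the named pairs of these genes as for Klhdc3, and 83 of the 951 pairs reached that smallest p. Without the 2 farthest arrays the r of these 5 pairs was between 0.975 and 0.999. Both identifiers of the named pair end in _a_at for Siva1, Skp2 and Brd8, and 1 does for Cdk4.

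Of the 951 graded pairs 138 (14.5%) had an r below 0, and 82 of the 325 of the plainer types did, but 5 passed the test. Sde2, which takes part in replication and splicing, had 6 graded probe sets. All but 2 of these were of type _x_at. Of the 6, 5 correlated with each other between 0.915 and 0.999, and only 1 of these 5 was of the plainer types. The remaining one, also of the plainer types, correlated with each of them between −0.608 and −0.784. That probe set was highest on arrays 2 and 6, at 651.9 and 536.2, where its named partner was lowest, at 72.5 and 76.5. The r of this pair was −0.784 (rho −0.738, exact p = 0.0238, adjusted p = 0.0393), and −0.757 without arrays 2 and 7. The adjusted p was above 0.05 with rho (0.0761), and also when array 1, 2, 3, 4, 6 or 8 was left out, up to 0.131.

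Pafah1b1, which encodes the dynein regulator Lis1, had several probe sets, among them 1 that was highest on array 5, at 3151, where another was lowest, at 68.2. Their r was −0.767 (rho −0.786, exact p = 0.0241, adjusted p = 0.0397), and −0.733 without arrays 5 and 7. With rho the adjusted p was 0.0501, and it was up to 0.118 when arrays 1, 2, 5, 6 or 8 were left out in turn. A further Pafah1b1 probe set was on in all 8 arrays and highest on arrays 5 and 6, at 334.75 and 335.3. Yet another was all-or-none and off in array 1 alone. Sf3a1, a splicing factor gene, had an r of −0.800 (rho −0.881, exact p = 0.0166, adjusted p = 0.0288), and −0.813 without arrays 3 and 6. Spred1, an inhibitor of the Ras pathway, had an r of −0.712 (rho −0.881, exact p = 0.00749, adjusted p = 0.0140), and −0.489 without arrays 1 and 7.

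For Usp19, a deubiquitinase gene, the negative r of −0.892 rested on array 8 (exact p = 0.0285, adjusted p = 0.046). There the dimmer probe set read 668.4, against at most 126.8 elsewhere, and the brighter, of type _x_at, read 304.4, its lowest. The rho of this pair was −0.381, and r was −0.452 without arrays 6 and 8. The dimmer probe set of Usp19 and another bright one had an r of −0.844 (rho −0.286, exact p = 0.0483, adjusted p = 0.0736) and −0.156 without arrays 1 and 8. The next most negative pairs of the plainer types did not pass the threshold. They were those of Riok2 (r = −0.731), a kinase of ribosome assembly, Smndc1 (−0.722), a splicing factor, and Taf2 (−0.703), a subunit of TFIID, with adjusted p of 0.0619, 0.0549 and 0.0914 in the same exact permutation test.

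Agreement was followed through genes with at least 3 graded probe sets, of which there were 125. In 55 all pairs had an r of at least 0.8, and in 29 at least 1 pair was below 0. Eif5, a translation initiation factor with 4 graded probe sets of the plainer types, was singled out after its values were seen. Its 6 correlations lay between −0.126 and 0.304, with no exact permutation p under 0.05. The 3 bright Eif5 probe sets were lowest on different arrays, at 258.6 on array 6, 450.5 on array 2 and 988.8 on array 8. Sfpq, a nuclear RNA-binding protein gene, singled out in the same way, had correlations between −0.558 and 0.486 among 4 probe sets. In neither gene was an array the lowest for all 4 probe sets.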

How the data were processed

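Total RNA of E14tg2a cells was measured on 16 Affymetrix mouse arrays, and the 8 titled as amplified from 10 pg are analysed here. Per the labels' protocols, each of the 8 amplified arrays had its own PCR of cDNA, followed by one-cycle biotin labelling. The deposited values are linear intensities, none under 1. How probes were summarised and arrays scaled is not given in the sources used here, and no batch is given in the labels.

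Replicate numbers come from the titles. From the deposited intensity, log2(intensity + 16) was taken for 45037 probe sets with no filter. Of these 34945 had 1 gene symbol in the platform annotation (34741 updated through RefSeq, GRCm38.p6), 932 several and 9160 none, and those without 1 symbol were not named. On and off were set at the 80th and 50th percentiles of each array. Graded pairs were tested with exact 2-sided permutation tests of Pearson r and Benjamini-Hochberg adjustment. Alternatives were pseudocounts of 1 and 64, median centring, quantile normalization, other thresholds, a filter on low values, dropping _x_at and _s_at probe sets, and leaving out each array. The scripts were tested on simulated data and used Python 3.11.15, numpy 2.4.6, pandas 2.3.3, scipy 1.17.1 and matplotlib 3.10.9.

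Genes were named by rule: the smallest and largest SDs in each range of level above 50, the widest gaps for each number of on arrays, the graded pairs of smallest p and most negative r, the all-or-none pairs with the widest gaps on in the same arrays or with the fewest shared arrays, the extremes of each group, and Pou5f1, Nanog, Sox2 and Actb. Other genes were singled out after their values were seen. The arrays, gene groups and tests were chosen with earlier results of these data known.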

Additional observations from a re-analysis of the deposited data

Results flagged for a closer look

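In 25 of 110 named probe sets, 1 array lay apart from the other 7: its gap to the nearest value, as a share of the whole range on the log2 scale, was at or above Dixon's 95% critical value. About 1 in 20 groups passes this limit by chance, and 11.1% of all probe sets and 328 of the 4427 always on probe sets (7.41%) passed it. The named probe sets were chosen partly for large spread or for being on in 1 or 7 arrays, so their share is a description.

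A single high array set apart Fam184b (share 1, array 4), Krr1 (1, array 7), Sncb (0.529, array 7), D16Ertd472e (0.757, array 2), a probe set each of Srgap2 (0.746, array 2) and of Fbxo31 (1, array 8), and the dimmer probe set of Usp19 (0.718, array 8). A single low array set apart Svbp (0.779), Pstk (0.843), Ndufs7 (0.637) and Brca1 (0.604), all on array 2. Chrac1 (0.842) and Polr2i (0.623) were low on array 5, Nupl1 (0.867) on array 3 and Cct3 (0.545) on array 8. The other probe sets of Srgap2 (0.581, array 2), Fbxo31 (0.657, array 8) and Usp19 (0.5264, array 8) were low on the array where the first was high.

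Both named probe sets were low on the same array in Dck (0.771 and 0.691, array 2), Fastkd2 (0.737 and 0.695, array 2) and Atp6v1c1 (0.79 and 0.693, array 4). Of Btaf1, 1 of the named probe sets was set apart (0.575, array 1). No array passed the limit on the 7 measures of whole arrays.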

How the results depend on the processing

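The correlations of the 12 pairs named by rule kept their sign under each alternative in which they were followed. Counts and SDs were compared by size only. The share of a group above the trend could cross 50%. Without an array, 19 to 24 of 39 DNA repair genes and 34 to 40 of 76 respiratory chain genes were above it. Of all 592 positively called pairs, 7 had an r below 0 without the 2 farthest arrays. The count of 1681 all-or-none probe sets was 375 with fixed intensities of 500 and 50, 838 with off at the 25th percentile, and 3829 and 229 with on at the 70th and 90th, and 1756 to 1888 without an array. Of same-gene all-or-none pairs, 81 of 154 were on in the same arrays, and 20 of 23, 47 of 63, 165 of 496 and 11 of 13 under those 4 settings. Without _x_at and _s_at probe sets this was 9 of 67, and without an array 80 to 94. Also without those types, 118 of 325 graded pairs passed, against 597 of 951 (530 to 561 without an array), and 379 of 4507 pairs reached an r of 0.8, against 1559 of 7200 (1547 to 1641 without an array, and 693 of 2113 where both SDs were at least 1). The median SD between arrays of 0.423 was 0.8126 with a pseudocount of 1, 0.2095 with 64 and 0.5238 above the 40th percentile of the mean, and 0.4129 to 0.4229 without an array. The count of probe sets with SD of at least 1, 8255, became 18880 and 4710 with those pseudocounts, and 8000 to 8291 without an array. Members of the groups above the trend numbered 423, and 377 to 429 over all alternatives. Negative calls were the least stable: for Sde2 and Pafah1b1 the adjusted exact p was 0.0611 and 0.0612 without _x_at and _s_at probe sets. The causes of these changes were not tested.

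No paired analysis was possible because the 8 arrays form a single group and no contrast between groups was fitted. Dim values are limited by array background, and on and off are percentiles, not detection calls. Whether the brightest values are limited at the top of the intensity scale was not tested. Whether probe sets of a gene share probes was not examined. Whether an off value reflects loss in dilution, in copying or in amplification cannot be told apart.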

Other observations

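Within the aminoacyl-tRNA synthetase genes, a division by compartment was made after the values were seen. The 16 genes of symbols ending in 2, which encode mitochondrial enzymes, had a median SD of 1.20, with 1 always on, 2 all-or-none and 13 above the level trend. The other 16 had a median SD of 0.56, with 12 always on, 0 all-or-none and 5 above the trend. The median geometric mean was 69.1 in the first and 853 in the second, so the groups also differed in level.

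Hprt, listed among the reference genes and not functional in this line, lay between 23.5 and 90.5 on the 8 arrays and was on in none.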
